A study of Caenorhabditis elegans with 2 samples.

Results

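Cytochrome P450 genes of the nematode Caenorhabditis elegans were compared between glp-4 larvae and a wild-type reference on spotted microarrays with 2 colours. The members were all genes whose symbol in the platform annotation starts with cyp- and a number, taken from probes that the annotation assigns to 1 gene. This gave 67 genes on 72 probes, of which 66 had a value on both arrays, among 14777 genes measured on both. The remaining member, cyp-25A3, had a value on the preparation 1 array only, a log2 ratio of 0.16. A further 3 probes that the annotation gives to several genes, with a cyp- symbol among them, were left out.

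The glp-4 RNA came from larvae of the L2, the second larval stage, and filled channel 2 of each array. Preparation 1 was used on 1 array and preparation 2 on the second. Channel 1 of both arrays held messenger RNA of wild-type worms described only as mixed, the common reference. Loss of glp-4 function leaves worms with few germ cells when they are kept at the restrictive temperature. The sources used here name neither the allele, nor the growth temperature, nor the make-up of the reference. The channels differ in both genotype and stage, which cannot be told apart. Whether the preparations were separate cultures is not stated in the labels. Each p-value rests on the spread between 2 hybridisations, drawn in large part from all genes, and may miss that between cultures. Precision is limited by the number of arrays.

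P450 enzymes are heme proteins, most of them in the endoplasmic reticulum, that use oxygen and electrons from a partner reductase to oxidise small lipophilic molecules. In worms they act on foreign compounds, on fatty acids that become signalling lipids, and on sterols that become hormones. The intestine is the main site of the response to foreign compounds, and genes of the cyp-35A group are widely used as readouts of that response.

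The deposited values are log2 ratios of the channels, with neither dye nor direction stated. They were read as likely glp-4 L2 over reference, because genes of the major sperm proteins and of yolk, which larvae before gametes and yolk should lack, lay below 0 on both arrays. The msp- genes had medians of -3.97 and -2.86 on the preparation 1 and 2 arrays (30 genes), and the vit- genes had medians of -7.16 and -6.80 (3 genes). Every sign below would turn if this reading were wrong. Germ cell markers were below 0 on both arrays for 8 of 8 genes, against 30.8% of all genes. Of 7 markers of adult yolk and eggs, the 4 egg markers were lower by the limma test described next, where 1.5% of all genes were called lower. The others are vit- genes, whose sign the reading of the direction fixed. Intestine markers had medians of 1.20 and 0.31 on the preparation 1 and 2 arrays over 10 genes. Above 0 on both arrays were 5 of them (against 37% of all genes), with 1 below on both and 4 of mixed sign. Of the 10 genes, only pept-1, a peptide transporter gene, passed the test (log2 ratio 2.76 ± 0.33, SD, n = 2; limma adjusted p = 0.0453), where 1.86% of all genes were called. Pharynx markers had medians of 0.57 and -0.41 (5 genes), body wall muscle markers 1.71 and -1.21 (5 genes), and hypodermis markers 0.06 and -0.09 (5 genes). These medians hide unlike genes. Above 0 on both arrays were 2 pharynx, 2 muscle and 1 hypodermis markers, and below on both 2, 1 and 2. Among muscle markers unc-54 had -2.37 and -1.89, whereas mup-2 had 1.93 and 1.80. Alone of these sets, the hypodermis gene col-19 passed the test, as lower (log2 ratio -3.19, limma adjusted p = 0.0325).

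The question for the P450 genes was which of them were higher or lower in glp-4 L2 than in the mixed worms. cyp-35A3, cyp-35A5, cyp-35A4, cyp-14A5 and cyp-35C1 had the largest mean ratios above 0, and cyp-37B1, cyp-13A1 and cyp-34A9 the largest below 0, while most other members lay near the reference. Means of the log2 ratio were set against 0 by limma, fitted over all 14777 genes, with Benjamini-Hochberg adjustment and a threshold of 0.05. By this test 1 of 66 P450 genes differed, cyp-35A3, which was higher in glp-4 L2, and 65 did not pass. The count was 0 when log2 ratios were limited to 5 in size, and 4 after quantile normalization, when cyp-35A4, cyp-35A5 and cyp-14A5 passed as well. The 1 gene is 1.52% of the members, against 1.86% of all genes called by limma, 0.365% of them higher and 1.5% lower. At an unadjusted limma p under 0.05 there were 13 P450 genes, or 19.7% against 18.7% of all genes. Of the members 10 had ratios above 0 (15.2%, against 7.78% of all genes) and 3 below (4.55%, against 10.9%).

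Counted without a test, 5 P450 genes were at least 2-fold above the reference on both arrays, or 7.58% against 4% of all genes. They were cyp-35A3, cyp-35A4, cyp-35A5, cyp-35C1 and cyp-14A5. At least 2-fold below on both arrays was 1 gene, cyp-13A1, or 1.52% against 7.35% of all genes. Both arrays were above 0 for 32 members (48.5%, against 37% of all genes) and below 0 for 13 (19.7%, against 30.8%). The signs differed for 21 members (31.8%), and for 4757 of all 14777 genes. On single arrays the counts at least 2-fold above were 13 members in preparation 1 (19.7%, against 13.3% of all genes) and 14 in preparation 2 (21.2%, against 13.5%). At least 2-fold below were 2 members in preparation 1 (3.03%, against 14% of all genes) and 4 in preparation 2 (6.06%, against 17.5%). Above on the preparation 1 array alone were 8 members (12.1%, against 9.31% of all genes), and on the preparation 2 array alone 9 (13.6%, against 9.49%). The median of the P450 means was 0.42, against 0.08 over all genes. By array the P450 medians were 0.26 and 0.20 for preparations 1 and 2, against 0.10 and 0.02 over all genes.

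Agreement between the arrays over the 66 P450 genes was moderate, with a Pearson r of 0.59 and a Spearman rho of 0.53. Over all genes the corresponding values were 0.53 and 0.46. These describe points that share both arrays and the reference RNA. Without the 6 genes of cyp-35A and cyp-35C, r over the remaining 60 P450 genes was 0.47. The median absolute difference between a P450 gene's values on the arrays was 0.57 log2 units.

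**Figure D1:**
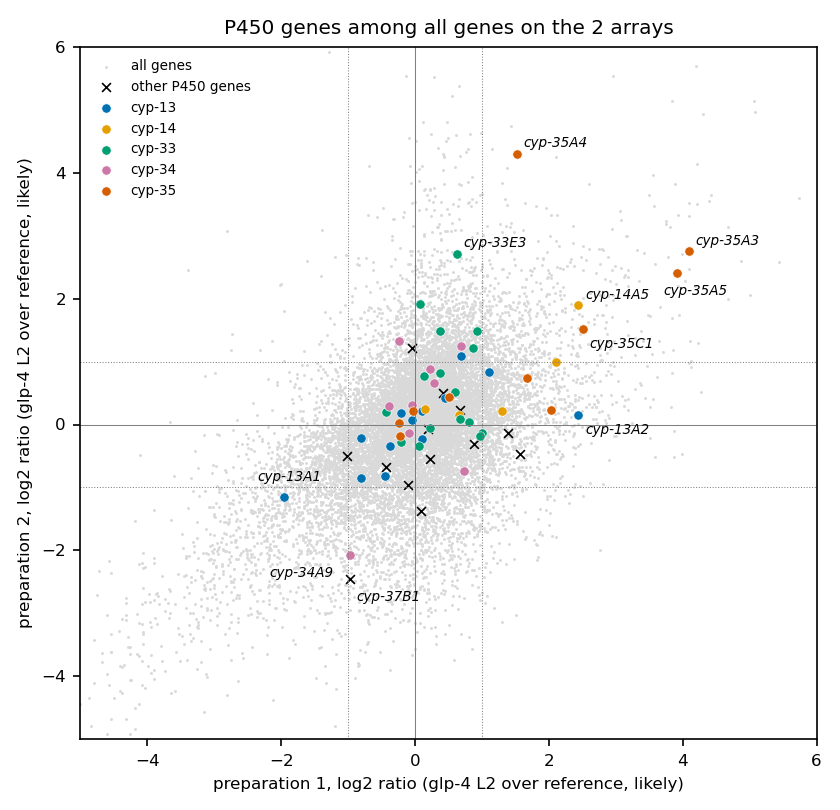
Log2 ratio on the preparation 1 array (horizontal) against the preparation 2 array (vertical) for each gene, with P450 genes coloured by subfamily and all genes in grey (the few beyond the axes are not drawn). Dotted lines mark a 2-fold difference, and 4 cyp-35 genes and cyp-14A5 lie beyond it in the upper right, cyp-13A1 in the lower left.

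The cyp-35 genes showed the widest range of the 5 subfamilies compared, from -0.20 to 3.43 in mean log2 ratio over 10 genes. The cyp-35A genes and cyp-35C1 were above 0 on both arrays, whereas the cyp-35B genes lay close to 0. cyp-35A3 had log2 ratios of 4.09 in preparation 1 and 2.76 in preparation 2. Both values were far above 0, and the mean of 3.43 ± 0.94 (SD, n = 2) corresponds to a 10.7-fold higher level in glp-4 L2 (limma adjusted p = 0.0424). With log2 ratios limited to 5, which changes the fit over all genes, it missed the threshold (limma adjusted p = 0.0597). Its mean ratio ranked 40 from the top among all 14777 genes.

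cyp-35A5 had log2 ratios of 3.91 and 2.41 in preparations 1 and 2, again high in both. The mean was 3.16 ± 1.06 (SD, n = 2) and did not pass (limma adjusted p = 0.0522). cyp-35A4 had 1.53 in preparation 1 and 4.30 in preparation 2. Preparation 2 was the higher one here, the reverse of cyp-35A3 and cyp-35A5, and the wide spread left the mean of 2.91 ± 1.97 (SD, n = 2) short of the threshold (limma adjusted p = 0.124). The foreign-compound response gene cyp-35C1 had 2.51 and 1.52 in preparations 1 and 2 (mean 2.01 ± 0.70, SD, n = 2; limma adjusted p = 0.102). The arrays measured RNA of whole worms, so more intestinal cells and more RNA per cell cannot be told apart. Beside the means of these genes, the 10 intestine markers had a median of 0.38 and ranged from -0.94 to 2.76, and their part in the result was not tested.

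The adjacent genes cyp-35A1 and cyp-35A2 had lower mean ratios than the other cyp-35A genes. cyp-35A1 had log2 ratios of 1.66 and 0.74 in preparations 1 and 2 (mean 1.20 ± 0.65, SD, n = 2; limma adjusted p = 0.236). cyp-35A2, which has been linked to fat storage, had 2.03 in preparation 1 and 0.23 in preparation 2, so that its distance from the reference rested on preparation 1. Its limma interval for the mean ran from -0.24 to 2.49 at the 95% level.

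The 3 cyp-35B genes stayed close to the reference on each array. cyp-35B1, one of the genes named as targets downstream of DAF-16, a transcription factor of insulin signalling, had log2 ratios of -0.24 and 0.02 in preparations 1 and 2. cyp-35B2 had -0.03 and 0.22, and cyp-35B3 had -0.22 and -0.19. cyp-35D1, whose product hydroxylates the drug thiabendazole, had 0.51 and 0.44. None of these 4 passed. The limma intervals are wide beside the ratios, from -1.10 to 0.87 for cyp-35B1 and from -0.50 to 1.45 for cyp-35D1.

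**Figure D2:**
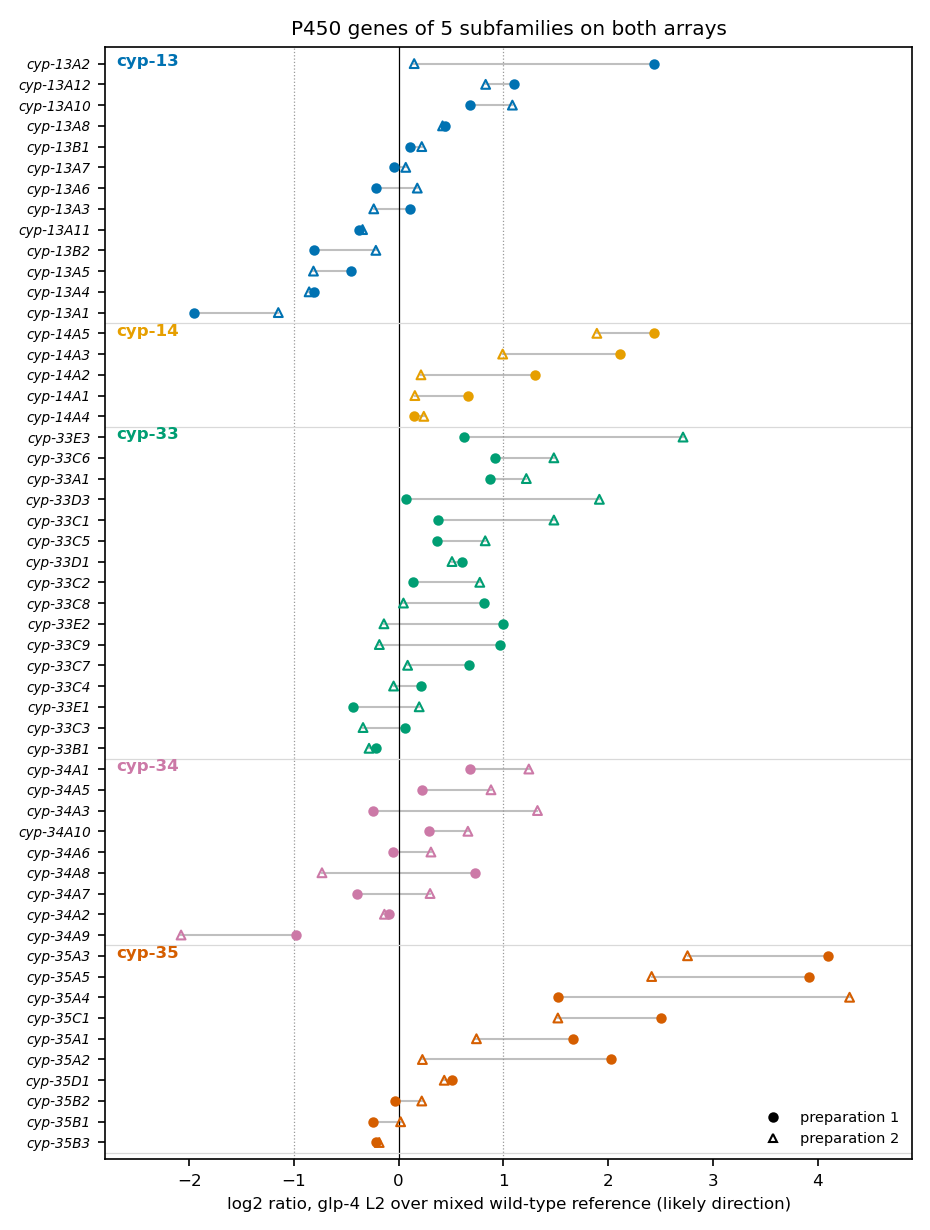
Log2 ratio of each measured cyp-13, cyp-14, cyp-33, cyp-34 and cyp-35 gene on the preparation 1 array (filled circles) and the preparation 2 array (open triangles), joined by a line and ordered by mean within each subfamily. The dotted lines mark a 2-fold difference; cyp-35A3 and cyp-35A5 lie beyond 2 on both arrays, while the 3 cyp-35B genes lie close to 0.

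Within cyp-35, 1 pair of direct neighbours, cyp-35A5 and cyp-35B1, stood far apart. The means of cyp-35B1 and cyp-35B2 differed by 0.21 log2 units, and those of cyp-35B2 and cyp-35B3 by 0.30. By the RefSeq table of the WBcel235 assembly, 38 of the 67 members are on chromosome V. There cyp-35A5 is followed without another gene between by cyp-35B1, cyp-35B2 and cyp-35B3, then after 3 other genes by cyp-34A5 to cyp-34A10 in an unbroken row. Neighbours and genes between were counted throughout among protein-coding genes and pseudogenes only. The means of cyp-35A5 and cyp-35B1 differed by 3.28 log2 units, the widest gap among the 23 pairs of adjacent P450 genes measured. The pair cyp-34A9 and cyp-34A10 came next with 2.00, and cyp-34A8 and cyp-34A9 differed by 1.52. Over all adjacent pairs the median difference was 0.61, and 7 pairs differed by more than 1. cyp-35A3 and cyp-35A4, separated by 1 gene, were both high, and the adjacent cyp-35A1 and cyp-35A2 differed by only 0.08. For scale, the values of a single P450 gene on the arrays differed by a median of 0.57 log2 units. Gaps between adjacent genes outside the family, or between P450 genes that are not adjacent, were not computed. The gaps given here are descriptions of the means and were not tested. Related members share sequence and no probe sequence was used, so members of a group are not separate measurements, and binding of a probe to a relative's RNA was not tested.

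**Figure D3:**
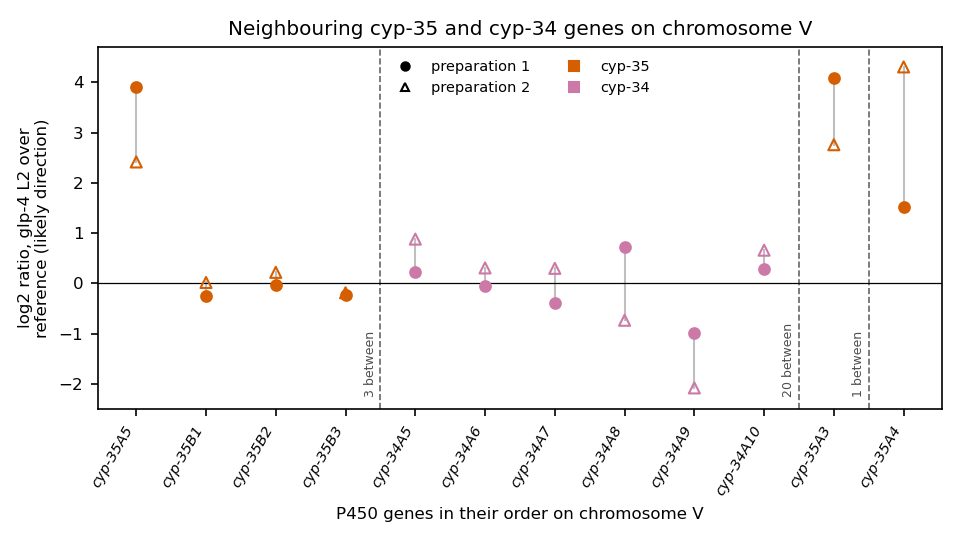
Log2 ratio of the P450 genes between cyp-35A5 and cyp-35A4 in their order on chromosome V, on the preparation 1 (filled circles) and preparation 2 (open triangles) arrays. Dashed lines mark where other protein-coding genes or pseudogenes lie between, with their number. cyp-35A5, cyp-35A3 and cyp-35A4 stand high, and cyp-34A9 stands low beside its neighbours.

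All 5 cyp-14 genes were above 0 on both arrays, against 37% of all genes, without any passing the test. The strongest was cyp-14A5, which lies on chromosome V apart from the other members on X. Its log2 ratios were 2.44 and 1.89 in preparations 1 and 2, high in both (mean 2.17 ± 0.39, SD, n = 2; limma adjusted p = 0.0716). cyp-14A3 had 2.11 and 0.99, its preparation 2 value just short of 2-fold (mean 1.55 ± 0.79, SD, n = 2; limma adjusted p = 0.175). Before it in the row on X, cyp-14A1 had 0.66 and 0.15 and cyp-14A2 had 1.30 and 0.21, with preparation 2 the lower one in both. cyp-14A4 had 0.15 and 0.24 and lay nearest to the reference.

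The 16 cyp-33 genes were mostly somewhat above 0. Above 0 on both arrays were 10 (against 37% of all genes), with 1 below on both (against 30.8%) and 5 of mixed sign. None passed the limma test, the lowest adjusted p being 0.214, and none was 2-fold from the reference on both arrays. Past 2-fold above on the preparation 2 array alone were 5 of them (31.2%, against 9.49% of all genes). These were cyp-33E3 (0.63 in preparation 1 and 2.71 in preparation 2), cyp-33D3 (0.07 and 1.92), cyp-33C1 (0.38 and 1.48), cyp-33C6 (0.92 and 1.48) and cyp-33A1 (0.87 and 1.22). cyp-33C6 and cyp-33A1 were close on the arrays, whereas cyp-33D3 and cyp-33E3 rested mainly on preparation 2.

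cyp-33E2, whose enzyme makes eicosanoids from polyunsaturated fatty acids, showed the opposite tilt, with 0.99 in preparation 1 and -0.14 in preparation 2. Its direct neighbour is cyp-33E3. cyp-33C9 had a similar split of 0.97 and -0.18, and cyp-33C8 had 0.81 and 0.05. cyp-33C5 had 0.37 and 0.83, cyp-33C2 had 0.13 and 0.77, and cyp-33C7 had 0.67 and 0.09. These 3 genes were above 0 on both arrays but within 2-fold of the reference. cyp-33D1 was nearly equal on the arrays at 0.60 and 0.51. The least distant from 0 in the mean were cyp-33C4 (0.22 and -0.05), cyp-33E1 (-0.44 and 0.20), cyp-33C3 (0.06 and -0.34) and cyp-33B1 (-0.21 and -0.28), the only cyp-33 gene below 0 on both arrays.

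Among 9 cyp-34 genes the mean log2 ratios ran from -1.53 to 0.96, with a median of 0.13, and none passed (lowest limma adjusted p = 0.179). cyp-34A9, also named among genes downstream of DAF-16, stood apart from its neighbours with -0.98 in preparation 1 and -2.08 in preparation 2. It was low in both (mean -1.53 ± 0.78, SD, n = 2; limma adjusted p = 0.179). The gene with the highest mean, cyp-34A1, had 0.68 and 1.24. Its direct neighbour cyp-34A2 had -0.09 and -0.14.

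The other genes of the chromosome V row were closer to the reference. cyp-34A5 had 0.23 and 0.88 in preparations 1 and 2, cyp-34A10 had 0.29 and 0.66, and cyp-34A6 had -0.05 and 0.31. cyp-34A8 split evenly, at 0.73 and -0.73, and cyp-34A7 had -0.39 and 0.30. cyp-34A3, listed as a pseudogene in RefSeq, had -0.25 and 1.33, and its preparation 2 value averages probes at -0.20 and 2.85 that disagree. The preparation 1 value of cyp-34A7 likewise averages probes at 0.44 and -1.23, and its preparation 2 value comes from 1 probe. This is the probe at 0.44 in preparation 1, so it was above 0 on both arrays. The mixed sign of cyp-34A7 thus rests on a probe that had a value in preparation 1 only.

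The 13 cyp-13 genes were spread on both sides of 0. Above 0 on both arrays were 5 (against 37% of all genes), with 5 below on both (against 30.8%) and 3 of mixed sign. cyp-13A1, the first gene of a long row on chromosome II, was low in both preparations, with -1.95 and -1.15 (mean -1.55 ± 0.57, SD, n = 2; limma adjusted p = 0.155). Next in the row, cyp-13A2 had 2.44 in preparation 1 but 0.15 in preparation 2. Such a spread left its limma interval from -0.27 to 2.85. cyp-13A3 had 0.11 and -0.24. Further along, cyp-13A4 (-0.81 and -0.85) and cyp-13A5 (-0.46 and -0.81) were below 0 on both arrays. The row ended with cyp-13A6 (-0.21 and 0.18), cyp-13A7 (-0.04 and 0.07) and cyp-13A8 (0.45 and 0.42).

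Away from that row, cyp-13A10 had 0.68 and 1.09 in preparations 1 and 2. On chromosome III, cyp-13A12, which oxygenates polyunsaturated fatty acids in the behavioural response to returning oxygen, had 1.10 and 0.83 (mean 0.97 ± 0.19, SD, n = 2; limma adjusted p = 0.272). Its direct neighbour cyp-13A11 had -0.38 and -0.34 from a pair of probes. The X-linked cyp-13B1 had 0.11 and 0.22, and cyp-13B2 had -0.81 and -0.22.

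Set side by side, the subfamily medians of mean log2 ratios were highest in cyp-35 (1.17) and cyp-14 (0.76). They were 0.44 in cyp-33, 0.13 in cyp-34 and -0.02 in cyp-13, against 0.08 over all genes. By array, the cyp-35 median was 1.59 in preparation 1 and 0.59 in preparation 2, and that of cyp-14 was 1.30 and 0.24. The medians of cyp-33 were closer between the arrays, at 0.49 and 0.35. In cyp-34 they were -0.05 and 0.31, and in cyp-13 -0.04 and 0.07. In preparation 2 the cyp-14 median therefore lay below those of cyp-33 and cyp-34, and the order of the subfamilies below cyp-35 was not the same on the arrays. An exact sign-flip test with 2 arrays cannot give a two-sided p under 0.5, and members are not replicates, so the order was not tested. The cyp-35 median also averages unlike groups, with 2.91 for the 5 cyp-35A genes and -0.11 for the 3 cyp-35B genes.

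Outside these subfamilies, 13 P450 genes were measured and none passed the limma test (lowest adjusted p = 0.172). The lowest of all P450 genes in the mean was cyp-37B1, with log2 ratios of -0.97 in preparation 1 and -2.46 in preparation 2. It was low in both (mean -1.72 ± 1.05, SD, n = 2; limma adjusted p = 0.172). cyp-37A1 had 1.39 and -0.13, and cyp-32A1 had 0.09 and -1.38, so each was distant from 0 on 1 array only. cyp-44A1, related to mitochondrial P450 enzymes, had -0.44 and -0.67. cyp-36A1, which acts downstream of the oxygen-sensing egl-9 pathway, had 0.87 and -0.31.

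The eicosanoid-producing cyp-29A3 had -0.11 and -0.96 in preparations 1 and 2. cyp-43A1 had 0.67 and 0.22, and cyp-25A2 had 0.19 and -0.07. For the remaining 5 genes of cyp-23A, cyp-25A and cyp-29A the means lay between -0.76 and 0.58, with 1 above 0 on both arrays, 1 below on both and 3 of mixed sign.

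A list of 25 further genes of the P450 pathway covered electron donors, sterol hormone synthesis, regulators and heme transport, and 22 were measured. None of the 22 passed the limma test (lowest adjusted p = 0.0638), against 1.86% of all genes. An unadjusted limma p under 0.05 was reached by 7 (31.8%, against 18.7% of all genes). Above 0 on both arrays were 7 genes (against 37% of all genes), with 7 below on both (against 30.8%) and 8 mixed. The median of the list was 0.39 in preparation 1 and -0.51 in preparation 2, and that of the means was -0.14. emb-8, the P450 reductase gene that supplies electrons, had 0.41 in preparation 1 and -2.63 in preparation 2. The arrays thus gave opposite signs for the main partner of the family (mean -1.11 ± 2.15, SD, n = 2; limma adjusted p = 0.463).

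Among sterol genes, daf-9, a P450 gene named outside the cyp- series that makes the hormone dafachronic acid, had 1.30 and 0.81 in preparations 1 and 2 (mean 1.05 ± 0.35, SD, n = 2; limma adjusted p = 0.253). daf-36, the oxygenase gene of an earlier step of the same synthesis, had 2.21 and 2.19, high and nearly equal (limma adjusted p = 0.0638). At least 2-fold above the reference on both arrays were 3 list genes (13.6%, against 4% of all genes), and 2 were as far below (9.09%, against 7.35%). Those above were daf-36, the nuclear receptor gene nhr-8 (1.58 and 1.03) and the heme carrier gene hrg-3 (1.53 and 1.87). Those below were the heme transporter gene hrg-1 (-2.14 and -1.17) and the prolyl hydroxylase gene egl-9 (-1.05 and -3.32). By rule, daf-36 and egl-9 were picked as the list genes with the largest mean ratios of 1 sign on both arrays. nhr-8, hrg-3 and hrg-1 were singled out after their values were seen.

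**Figure D4:**
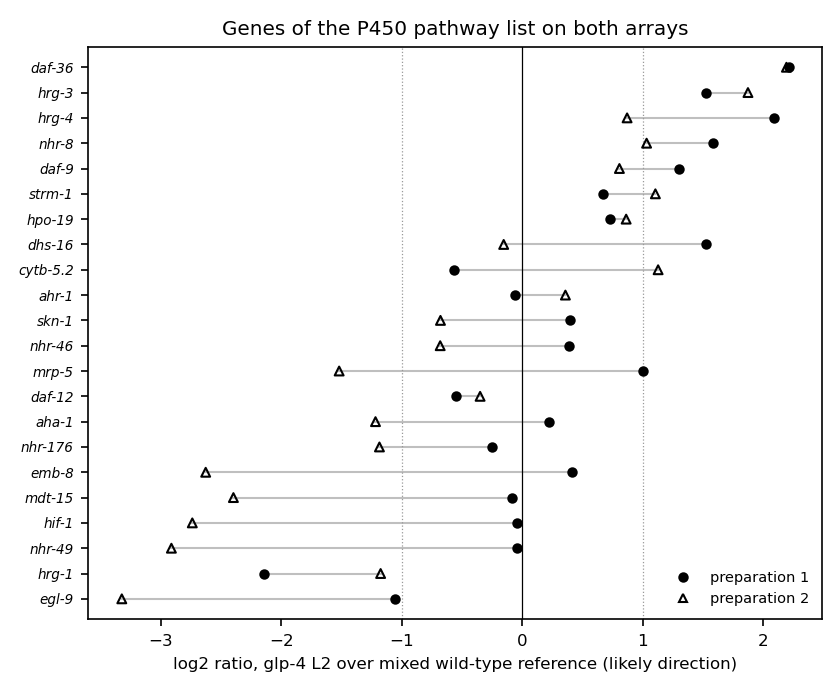
Log2 ratio of the 22 measured genes of the P450 pathway list on the preparation 1 (filled circles) and preparation 2 (open triangles) arrays, ordered by mean. Dotted lines mark a 2-fold difference; daf-36 had nearly equal values near 2.2 on both arrays, and emb-8 had opposite signs.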

How the data were processed

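The deposited table holds, for every probe on each array, a log2 ratio of the 2 channels as the authors made it, with no scaling or direction stated. Base 2 was inferred because undoing the logarithm gave whole steps of 0.001 (tolerance 0.002 steps) for 99.1% of preparation 1 values and 98.8% of preparation 2 values. The sources used here do not name the dyes, the scanner or the background correction. Of 21632 probes, 16450 had 1 gene in GEO's platform annotation, 247 several and 4935 none. Probes with 1 gene were averaged per gene by Entrez ID, with names from RefSeq (16360 probes matched). Values were used as deposited. Means were tested against 0 with lmFit and eBayes of limma 3.58.1 (R 4.3.3). The variance of each gene was drawn toward a value shared by all genes, with 4.52 prior degrees of freedom against 1 from the arrays. An SD given with n = 2 is the gene's own, so limma p-values and intervals do not follow from it alone. Because 1 reference RNA served both arrays, its spread is left out of the test, and dye bias is not removed. The test was checked on simulated data with independent normal noise drawn from its own fitted variances. Such data hold neither dye bias nor a shared reference, so the check cannot speak to either. The members and lists were chosen with earlier results of these data known. Singly named genes are all members of the 5 subfamilies, other members past the test or 2-fold away on both arrays, and a fixed set of other P450 genes. Of the pathway list, emb-8 and daf-9 were fixed, and daf-36 and egl-9 were taken for their values, by the rule given above. Alternatives were centring, quantile normalization, limited ratios, median of probes, genes with 1 probe, a gene span correction, a robust prior and each array alone.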

Additional observations from a re-analysis of the deposited data

How the results depend on the processing

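No paired analysis was possible because there is 1 group and the reference RNA is on every array. The 1 P450 gene past the limma test became 2 with each array centred on its median, 4 after quantile normalization, 3 after the gene span correction and 0 with log2 ratios limited to 5. All genes past the test numbered 275, against 467, 605, 489 and 140 under the same settings in this order. cyp-35A3 missed the threshold only with limited ratios (limma adjusted p = 0.0597), a setting that leaves its own values unchanged. cyp-35A5 passed when centred, quantile normalized and span corrected (limma adjusted p = 0.0305, 0.0184 and 0.0292). cyp-14A5 passed under the last 2 of these (limma adjusted p = 0.0364 and 0.0449), and cyp-35A4 after quantile normalization (limma adjusted p = 0.0465). The 1 P450 gene at least 2-fold lower on both arrays became 3 when centred, 3 when quantile normalized and 2 when span corrected. With values as deposited, 7.35% of all genes were as far below. That share was not counted under the alternatives, so these rises cannot be set against all genes. On single arrays 13 to 14 P450 genes were at least 2-fold higher and 2 to 4 at least 2-fold lower, with the shares of all genes given above. The subfamily medians on single arrays ran from -0.042 to 0.068 for cyp-13, 0.24 to 1.30 for cyp-14, 0.35 to 0.49 for cyp-33, -0.05 to 0.31 for cyp-34 and 0.59 to 1.59 for cyp-35. Limited ratios, the median of probes, genes with 1 probe and the robust prior leave the member means unchanged, so no sign could change under them. With values as deposited, only cyp-35A3 among the 61 named genes was past the threshold. Of 422 values of these 61 genes under the alternatives with a test, 409 kept their sign and side of the threshold. Under these alternatives, all run on both arrays, the sign changed only in cyp-13A7 (-0.048 centred and -0.00045 span corrected), cyp-13A3 (0.048 span corrected), cyp-25A2 (-0.0014 centred) and cyp-34A8 (0.036 quantile normalized and 0.064 span corrected). Between the single arrays the sign differed for 21 of the 66 members (31.8%), and for 4757 of all 14777 genes. The cause of these shifts was not tested. Signal over background is unknown, so no P450 gene could be called absent.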

Other observations

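On the preparation 2 array alone, 9 P450 genes were at least 2-fold above the reference (13.6%, against 9.49% of all genes). They were 5 of 16 cyp-33 genes, 2 of 9 cyp-34 genes, cyp-13A10 and cyp-23A1. On the preparation 1 array alone there were 8 (12.1%, against 9.31% of all genes). They were 2 of 13 cyp-13 genes, 2 of 5 cyp-14 genes, 2 of 10 cyp-35 genes, cyp-29A2 and cyp-37A1. A pair of probes each gave the values of cyp-33C2 (0.03 and 0.24 in preparation 1, 0.31 and 1.24 in preparation 2) and of cyp-33E1 (-0.50 and -0.38 in preparation 1, -0.14 and 0.53 in preparation 2). The probes of cyp-13A11 were at -0.93 and 0.16 in preparation 1 and at -0.57 and -0.12 in preparation 2. Gene spans in RefSeq were similar in the P450 genes and in all genes, with medians of 2281 and 2139 base pairs.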
